A study of Mus musculus with 5 samples.

Results

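The nuclear receptors for steroid hormones and the proteins that carry their signal to the transcription machinery were followed in uteri of mice aged 15 days that had lost Dicer. The genes are Esr1, Esr2, Pgr, Nr3c1 and Nr3c2, the p160 coactivator genes Ncoa1, Ncoa2 and Ncoa3, and Nrip1. Every array probe listed under ESR1, ESR2, PGR, NR3C1, NR3C2, NCOA1, NCOA2, NCOA3 or NRIP1 was taken, which gave 22 of 45281 probes for 9 of 31490 gene names on the array. In the Dicer cKO mice, Cre recombinase made from the progesterone receptor gene (PR-Cre) had deleted Dicer, which processes microRNA precursors into their mature form. They were compared with mice labelled as wild type controls, of the same mixed C57BL/6J;129S5/Brd background and age. There were 2 Dicer cKO pools of uteri (10 and 12) and 3 control pools (7, 9 and 11), each read on 1 Illumina bead array. The sources used here do not say how many uteri made a pool, so a p-value reflects only how far these 5 pools spread.

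PR-Cre acts where the progesterone receptor is made, so the gene that drives the deletion is itself among the genes described here. The labels do not spell out the control genotype allele by allele. If wild type means that the controls lack Cre, the presence of Cre in the Pgr locus and the loss of Dicer cannot be told apart in any difference, that of Pgr included.

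Steroid receptors are transcription factors that a hormone switches on. Once bound, the receptor sits on DNA and recruits p160 coactivators, which bring in enzymes that open chromatin, while Nrip1 (RIP140) competes for the same surface and mostly represses. In the uterus, oestrogen acting through Esr1 drives epithelial growth and induces Pgr, and the progesterone receptor then restrains that growth and readies the tissue for pregnancy. Nr3c1 encodes the glucocorticoid receptor and Nr3c2 the mineralocorticoid receptor. Esr2, the second oestrogen receptor, is made mostly in the ovary.

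Because Dicer is the shared step in making microRNAs, the mature sequences of 5 microRNAs that others have tied to these receptors are shown first, from RefSeq (GRCm38.p6), with the seed (bases 2 to 8) in capitals. The first was reported to act on Pgr in mouse mammary cells, the next 3 on the oestrogen receptor gene and the last on the NCOA3 gene in human cancer cells. Their levels were not measured on these arrays, and the 5 seeds are all different.
mmu-miR-126a-3p: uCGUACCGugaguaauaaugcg
mmu-miR-206-3p: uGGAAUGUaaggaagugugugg
mmu-miR-22-3p: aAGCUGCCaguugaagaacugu
mmu-miR-18a-5p: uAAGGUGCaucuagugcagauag
mmu-miR-17-5p: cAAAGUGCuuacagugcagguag

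RefSeq's promoter table listed 6 of the 9 genes. Pgr was the member that changed, so the 250 bases before the start listed there are shown as well (GRCm38.p6, plus strand, chr9:8899583-8899832), with the motif matches in capitals. The RefSeq span of the Pgr gene begins farther upstream, at base 8898900, so this window lies inside that span. For Pgr only these 250 bases were searched, so sequence before base 8899583 was not. 
Pgr upstream: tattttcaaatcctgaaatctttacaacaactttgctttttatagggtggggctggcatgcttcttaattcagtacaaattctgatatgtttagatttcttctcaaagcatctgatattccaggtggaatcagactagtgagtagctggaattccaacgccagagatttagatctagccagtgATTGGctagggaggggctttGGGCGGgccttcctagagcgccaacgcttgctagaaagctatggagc
Of 6 motifs searched on both strands, 2 were found there. A GC box (GGGCGG) lay 47 to 42 bases before the start, and such a box was present in 32.7% of 32851 upstream windows of this length. A CCAAT box (CCAAT), here on the other strand as ATTGG, lay 67 to 63 bases before the start and was present in 33.8% of windows. The palindromic oestrogen response element (GGTCANNNTGACC), its single arm (GGTCA), the arm shared by progesterone and glucocorticoid response elements (TGTTCT) and the AP-1 site (TGANTCA) had no match in this window. They were present in 0.0639%, 35.2%, 16.1% and 6.75% of windows, and every match to the palindrome also holds its arm.

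The arrays detected between 47.0% and 49.5% of all probes, where a probe counts as detected at a detection p under 0.05 against the negative controls of its array. Signals were background-corrected and quantile-normalized, and the 22845 probes detected on at least 2 of 5 arrays were tested with limma, adjusted by Benjamini-Hochberg over all of them. Of these, 1340 (5.87%) were called at an adjusted p under 0.05, 804 lower (3.52%) and 536 higher (2.35%) in the Dicer cKO pools. The count of called probes fell to 356 without Dicer cKO pool 10, and to 791 without control pool 7 and 833 without control pool 9. Dicer1 itself differed by -0.43 ± 0.09 log2 units at its brighter probe (SE; limma adjusted p = 0.0233). That probe is listed as D12ERTD7E and was assigned to Dicer1 through a RefSeq synonym. The dimmer probe, listed as DICER1, differed by -0.22 ± 0.13 (limma adjusted p = 0.392). Leaving out Dicer cKO pool 10 ended the call of the brighter probe (-0.37; limma adjusted p = 0.195), as did leaving out control pool 7, 9 or 11 (-0.42, -0.45 and -0.43; limma adjusted p = 0.0764, 0.0733 and 0.0576) or the intensity trend of the fit (limma adjusted p = 0.0604). Markers of the uterus were present, among them the stromal gene Hoxa11 and the muscle gene Myh11, while the epithelial marker Epcam was not detected by its probe.

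Most of the 22 receptor and coregulator probes sat near the background of the array. In all, 14 were not detected on any array and 1 on a single array, 7 passed the filter, and 5 were detected on all 5 arrays. The 7 came from 6 genes, since Esr2, Nr3c2 and Nrip1 had no probe that passed. Among the 7, 1 was called, Pgr, and it was lower in the Dicer cKO pools, where 3.52% of all tested probes were called lower. The groups stood apart for 1 of the 7, again Pgr, as they did for 36.7% of all tested probes (17.1% with both Dicer cKO pools below all control pools and 19.6% above). The other 6 were not called and had overlapping groups. By unadjusted p under 0.05 the count was also 1 of 7, against 19.6% of all tested probes. Signals of different probes are not on a shared scale of abundance, so each of these genes is described against itself only.

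**Figure D1:**
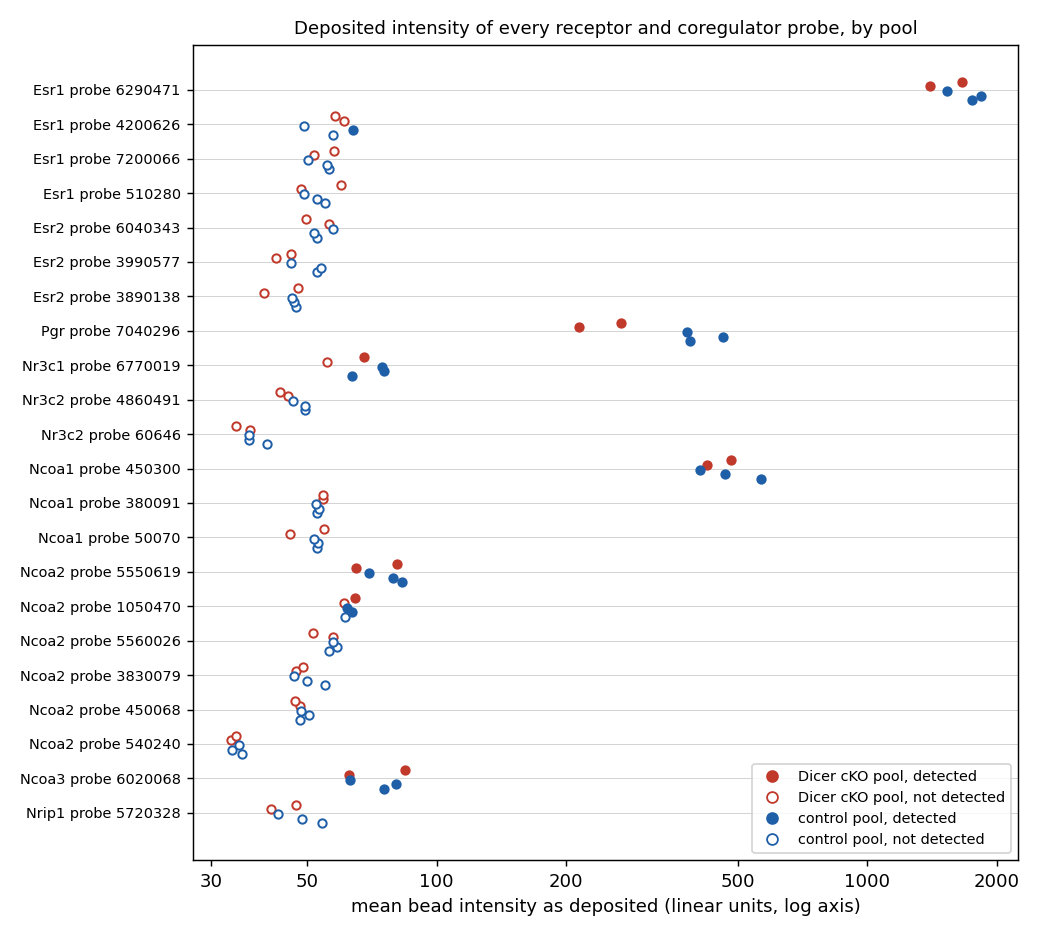
Deposited mean bead intensity (log axis) of each of the 22 probes in 2 Dicer cKO pools (red, upper) and 3 control pools (blue, lower); filled points were detected (p under 0.05) and open points were not. Esr1 probe 6290471, Pgr and Ncoa1 probe 450300 stand well above the rest, and only Pgr has separate groups among the probes that passed the filter.

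Pgr, which encodes both forms of the progesterone receptor, was lower in Dicer cKO uteri. As deposited, its probe read 214.4 and 267.6 intensity units in Dicer cKO pools 10 and 12, against 388.2, 461.7 and 380.6 units in control pools 7, 9 and 11. The standard error over the 27 to 44 beads of an array was 7.36 and 8.49 units in the Dicer cKO pools and 12.8 to 16 units in the control pools, smaller than the gap between the groups. Both Dicer cKO pools lay below every control pool, as they did for 17.1% of all tested probes.

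After normalization Pgr stood at 7.65 and 7.88 log2 units in Dicer cKO pools 10 and 12, against 8.31, 8.72 and 8.56 in control pools 7, 9 and 11. The groups kept apart by more than either varied within itself. The difference was -0.77 ± 0.14 log2 units (SE; limma adjusted p = 0.0079; 2 pools against 3), a ratio of 0.585 with a 95% interval of 0.475 to 0.722. The call was lost without Dicer cKO pool 10, where the difference was -0.66 ± 0.16 (limma adjusted p = 0.117), and was kept in the other 15 alternatives, with differences from -0.89 to -0.68. The array does not separate the forms of the receptor, and a fall in the number of cells that make Pgr cannot be told apart from less Pgr RNA per cell, here or for any gene below. Nor can the loss of Dicer be told apart from the presence of Cre in the Pgr locus itself, if the controls lack Cre. Of 14 tested markers of stroma, a tissue that makes Pgr, 5 were called lower, none higher, and 9 were not called. Of 14 tested epithelial markers, 5 were called lower and 4 higher, and of 10 smooth muscle markers none was called. Of all tested genes, each read at its brightest probe, 3.88% were called lower and 2.68% higher. The stromal count fell when Dicer cKO pool 10 was left out. The summed signal of the stromal list was 42554 to 48046 in the Dicer cKO pools, against 50893 to 52754 in the control pools. Sums of marker lists, here and below, are led by their brightest probes and do not measure the amount of a cell type. The part of these tissues in the Pgr difference was not tested.

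**Figure D2:**
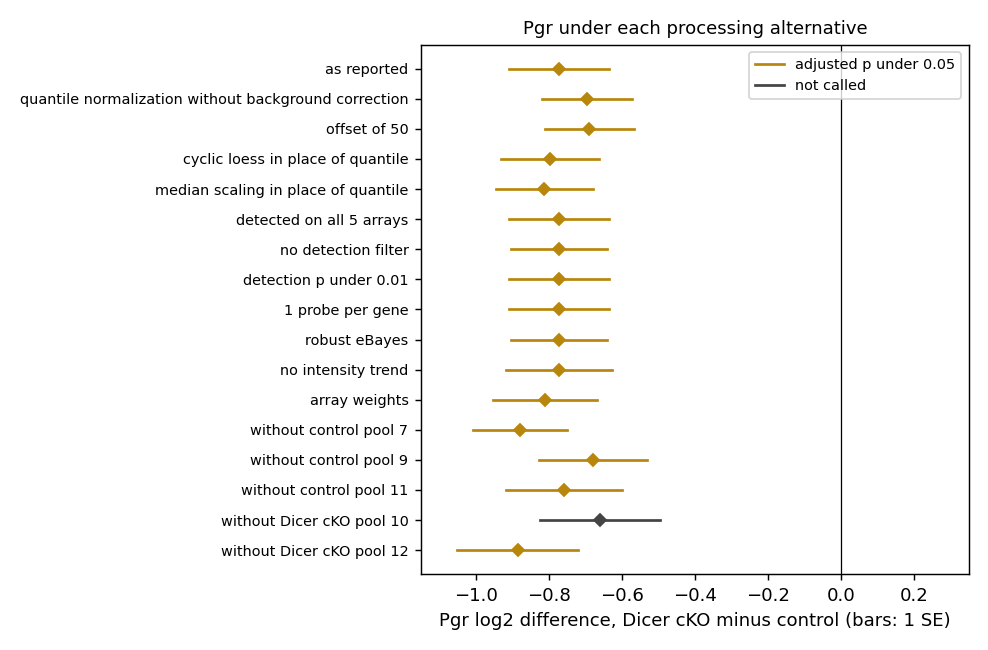
Difference of Pgr (log2, Dicer cKO minus control; bars, 1 SE) as reported and under 16 alternatives. The estimate stays between -0.89 and -0.66, and only without Dicer cKO pool 10 is Pgr not called.

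Esr1, the receptor through which oestrogen acts in the uterus, was bright at 1 probe and not called. Its bright probe, 6290471, read 1396.9 and 1663 units in Dicer cKO pools 10 and 12, against 1754.1, 1832.7 and 1529.7 units in control pools 7, 9 and 11. On the log2 scale these became 10.51 and 10.63 in the Dicer cKO pools, against 10.60, 10.81 and 10.67 in the control pools, and Dicer cKO pool 12 lay above control pool 7. The difference was -0.12 ± 0.09 log2 units (limma adjusted p = 0.505). The ratio was 0.918 with a 95% interval of 0.800 to 1.05, which holds both no difference and a modest loss. Over the 16 alternatives the difference lay between -0.18 and -0.06, with no call.

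The remaining 3 Esr1 probes added nothing to that. They read between 48.4 and 64.0 units over all pools, and the 15 readings held 1 detected value, that of probe 4200626 in control pool 9 (64.0 units). The sources used here do not place these probes on exons or transcript forms. The difference of Esr1 therefore rests on 1 probe.

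Esr2 was not detected by any of its 3 probes on any array. They read 39.7 to 56.3 units in the Dicer cKO pools and 46.0 to 57.5 units in the control pools. The lowest detection p was 0.066, in control pool 11. No difference can be given, since on both sides the signal is within the background.

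Of the adrenal steroid receptors, Nr3c1, the glucocorticoid receptor gene, was seen at the edge of detection. Its probe read 55.6 and 67.9 units in Dicer cKO pools 10 and 12, against 63.8, 75.7 and 74.7 units in control pools 7, 9 and 11. It was detected in Dicer cKO pool 12 but not in pool 10, and in all control pools, in pool 7 only just under the threshold. The log2 values were 4.79 and 5.21 in the Dicer cKO pools, against 4.94, 5.43 and 5.59 in the control pools, so the groups overlapped. The difference of -0.31 ± 0.21 was not called (limma adjusted p = 0.456). Its interval as a ratio, 0.585 to 1.11, includes no difference, and its lower end lies at the Pgr ratio of 0.585. Leaving out 1 pool moved the Nr3c1 difference between -0.52 (without Dicer cKO pool 12) and -0.11 (without Dicer cKO pool 10).

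Nr3c2, the mineralocorticoid receptor gene, was not detected by either of its 2 probes. They read 34.2 to 45.3 units in the Dicer cKO pools and 36.6 to 49.6 units in the control pools, with no detection p below 0.324. No difference can be given for Nr3c2, and a signal within the background is no measurement of absence.

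**Figure D3:**
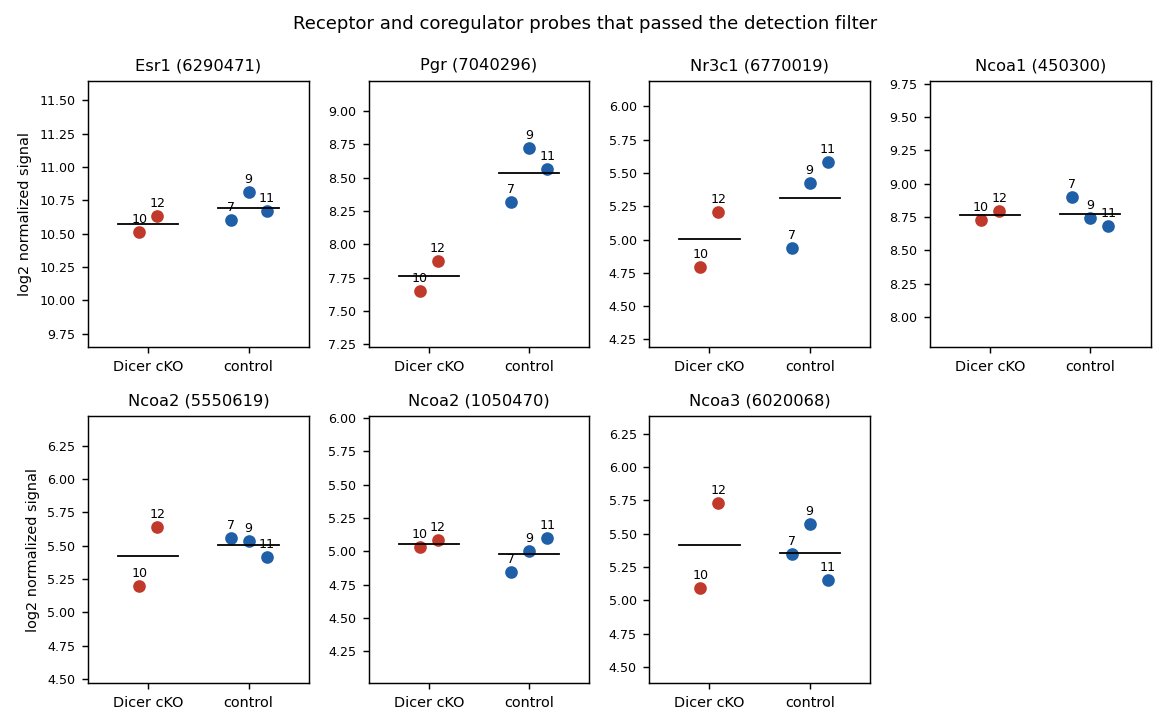
Normalized log2 signal of the 7 probes that passed the detection filter, 1 point per pool (numbers are pool labels), Dicer cKO left and control right; lines are group means and each panel spans 2 log2 units. Pgr has groups that do not overlap, and in the other 6 panels they do.

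None of the p160 coactivator probes was called. Ncoa1 (SRC-1) had 1 probe well above background, 450300, which read 424.5 and 483 units in Dicer cKO pools 10 and 12, against 567.4, 466.5 and 409.5 units in control pools 7, 9 and 11. The control pools alone spanned the range of the Dicer cKO pools. On the log2 scale the difference was -0.01 ± 0.10 (limma adjusted p = 0.969), with an interval of the ratio from 0.848 to 1.16. The other 2 Ncoa1 probes were not detected, at 45.7 to 54.8 units in the Dicer cKO pools and 51.9 to 53.4 units in the control pools.

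Ncoa2 (SRC-2), a p160 protein that works with the progesterone receptor in the mouse uterus, had 6 probes, of which 2 passed. Probe 5550619 read 65.0 and 81.0 units in Dicer cKO pools 10 and 12, against 83.0, 79.3 and 69.8 units in control pools 7, 9 and 11. The Dicer cKO pools spread over 0.44 log2 units (5.20 and 5.64) and the 3 control pools (5.56, 5.54 and 5.42) fell between them. The difference was -0.09 ± 0.16 (limma adjusted p = 0.828). Probe 1050470 gave 0.08 ± 0.14 (limma adjusted p = 0.825), from 61.1 and 64.7 units in the Dicer cKO pools against 61.3, 63.7 and 61.8 units in the control pools. So the probes differed in sign by less than their error, and the 4 others, at 33.3 to 58.6 units over all pools, were not detected.

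Ncoa3 (SRC-3) had 1 probe, which read 62.6 and 84.4 units in Dicer cKO pools 10 and 12, against 75.6, 80.4 and 63.0 units in control pools 7, 9 and 11. The pools of Dicer cKO uteri held both the lowest and the highest value, 5.09 and 5.73 log2 units, around 5.34, 5.57 and 5.15 in the control pools. The mean difference of 0.06 ± 0.20 (limma adjusted p = 0.922) rests on that spread: it was 0.38 without Dicer cKO pool 10 and -0.26 without Dicer cKO pool 12. The interval of the ratio was 0.763 to 1.42.

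Nrip1, the corepressor and itself a gene that oestrogen induces, was not detected on any array. Its probe read 41.2 and 47.2 units in Dicer cKO pools 10 and 12, against 54.2, 48.8 and 42.8 units in control pools 7, 9 and 11. The lowest detection p was 0.21, in control pool 7.

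From here on, a gene is read at its brightest probe that passed the filter, which gave 15733 genes, of which 422 (2.68%) were called higher and 611 (3.88%) lower. Of 29 related and membrane steroid receptor genes, 18 were tested, with none called higher and 2 lower. Both are receptors of the cell surface. Gper1, listed as GPR30, is a G protein-coupled receptor reported to respond to oestrogen, and stood at 7.56 and 7.52 log2 units in Dicer cKO pools 10 and 12, against 8.65, 8.45 and 8.39 in control pools 7, 9 and 11. The groups were about a log2 unit apart, with a difference of -0.96 ± 0.11 (limma adjusted p = 0.00085). Paqr6, a membrane progestin receptor gene, stood at 5.45 and 5.88 log2 units in the Dicer cKO pools, against 6.86, 6.66 and 6.77 in the control pools, a difference of -1.10 ± 0.16 (limma adjusted p = 0.0026). Both were called under all 16 alternatives. The median of the 18 was -0.16, against 0.01 over all tested genes.

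**Figure D4:**
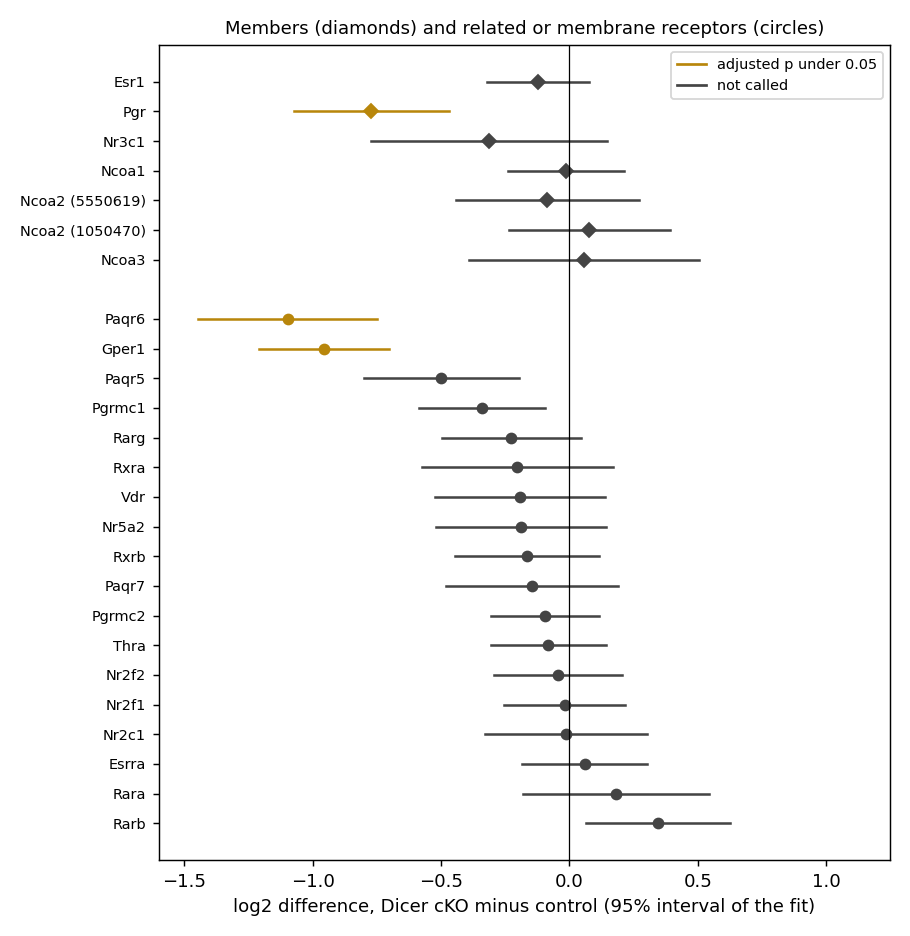
Log2 difference, Dicer cKO minus control, with its 95% interval for the 7 tested member probes (diamonds) and 18 related or membrane receptors (circles). Pgr at -0.77, Gper1 at -0.96 and Paqr6 at -1.10 were called, and the interval of Esr1 includes 0.

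Of 40 tested genes for other coactivators and corepressors, limma called 0, also under robust variance estimation, where 6.57% of all genes were called. An unadjusted p under 0.05 was reached by 9 of the 40, and by 19.6% of all tested probes. The differences of the 40 ran from -0.46 to 0.46 with a median of 0.05. The strongest by the test were Tbl1x, part of the NCoR corepressor complex (-0.30 ± 0.09; limma adjusted p = 0.10), and Ppargc1a, a coactivator of energy metabolism (-0.46 ± 0.15; limma adjusted p = 0.109). Of 20 receptor chaperones and immunophilins, 1 was called (5%, against 6.57% of all genes). It was Stip1, which hands receptors between heat shock proteins, higher by 0.38 ± 0.08 (limma adjusted p = 0.0214). Dropping Dicer cKO pool 10 ended that call (0.30; limma adjusted p = 0.208), as did dropping control pool 7 (0.37; 0.0678) or 9 (0.37; 0.085) or the intensity trend (limma adjusted p = 0.0979).

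Genes known to answer to oestrogen were called in both directions. Of 30 tested oestrogen receptor targets, 8 were higher and 5 lower, 43.3% called against 6.57% of all genes. The list includes Pgr, which is among the 5 called lower, and Ncoa3. Its genes were not sorted by the direction in which oestrogen moves them, and it was drawn up with earlier results of these data known. Cdkn1a, an inhibitor of cyclin-dependent kinases, rose by 2.20 ± 0.12 log2 units (limma adjusted p = 8.06e-06), and the Wnt ligand gene Wnt4 by 1.52 ± 0.19 (limma adjusted p = 0.0010). Inhbb, an activin subunit gene, rose by 1.49 ± 0.27 (limma adjusted p = 0.0104). With Dicer cKO pool 10 or 12 left out it was no longer called (1.43 and 1.54; limma adjusted p = 0.145 and 0.056), nor with robust variance estimation (limma adjusted p = 0.0605). Clca1, a secreted regulator of chloride channels listed as Clca3, was not detected by this probe on either Dicer cKO array. It stood at 4.76 ± 0.12 log2 units in the Dicer cKO pools and 8.22 ± 0.53 in the control pools (SD, n = 2 and 3), at least 9.31-fold lower against the lowest detected signal of each array (limma adjusted p = 2.9e-05). The list's median was -0.08. Without Dicer cKO pool 10 the count was 4 higher and 2 lower.

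Of 27 tested progesterone receptor targets, 6 were lower (22.2%) and none higher, where 3.88% of all genes were called lower. This list was also drawn up with earlier results of these data known, so its share is not an independent result. Lrp2, an endocytic receptor of the uterine epithelium, stood at 6.31 and 7.17 log2 units in Dicer cKO pools 10 and 12, against 10.80, 9.82 and 9.46 in control pools 7, 9 and 11. Ihh, the hedgehog ligand by which progesterone signals from epithelium to stroma, stood at 4.97 and 5.45 in the Dicer cKO pools, against 7.56, 7.28 and 6.67 in the control pools. Both were well separated, with differences of -3.29 ± 0.34 and -1.96 ± 0.24 (limma adjusted p = 0.00038 and 0.0011). Ihh was not detected in Dicer cKO pool 10, where the lowest detected signal was 5.03, so its difference rests partly on a background reading. Ptch1, the hedgehog receptor that is also induced by the pathway, fell by 1.33 ± 0.18 (limma adjusted p = 0.0020), and Sox17, an epithelial transcription factor, fell by 0.87 ± 0.13 (limma adjusted p = 0.0032). The median of the list was -0.11. Leaving out any 1 pool left between 4 and 6 called, all lower. Robust variance estimation lost the call of Lrp2 (limma adjusted p = 0.0812), whose pools differ widely within each group.

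The glucocorticoid and mineralocorticoid receptor targets, 27 tested, had 9 lower and 1 higher (37.0% called, against 6.57%). Here too the list was drawn up with earlier results of these data known, so its share is not an independent result. The sodium channel subunit gene Scnn1b, a target of aldosterone in the kidney, fell by 0.95 ± 0.12 (limma adjusted p = 0.0012). Nfkbia, the inhibitor of NF-kappaB, fell by 0.64 ± 0.11 (limma adjusted p = 0.0083), and Tsc22d3, the glucocorticoid-induced leucine zipper, by 0.68 ± 0.13 (limma adjusted p = 0.0137). Sult1a1, a phenol sulfotransferase gene, fell by 1.02 ± 0.25 log2 units (limma adjusted p = 0.0418), a call lost under 7 alternatives. The member that rose was Angptl4 (0.35 ± 0.08; limma adjusted p = 0.0314), which is named here after its value was seen. No gene of the list was called higher without Dicer cKO pool 10, without control pool 7, 9 or 11, or without the intensity trend. The median of the list was -0.26. These counts leaned on single pools: 1 was called without Dicer cKO pool 10, and 4 each without control pool 7, control pool 9 or Dicer cKO pool 12. There were also 4 without the intensity trend, and 6 without the detection filter. Nfkbia and Tsc22d3 were among the calls that ended with Dicer cKO pool 10 left out (-0.54 and -0.51; limma adjusted p = 0.118 and 0.191).

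**Figure D5:**
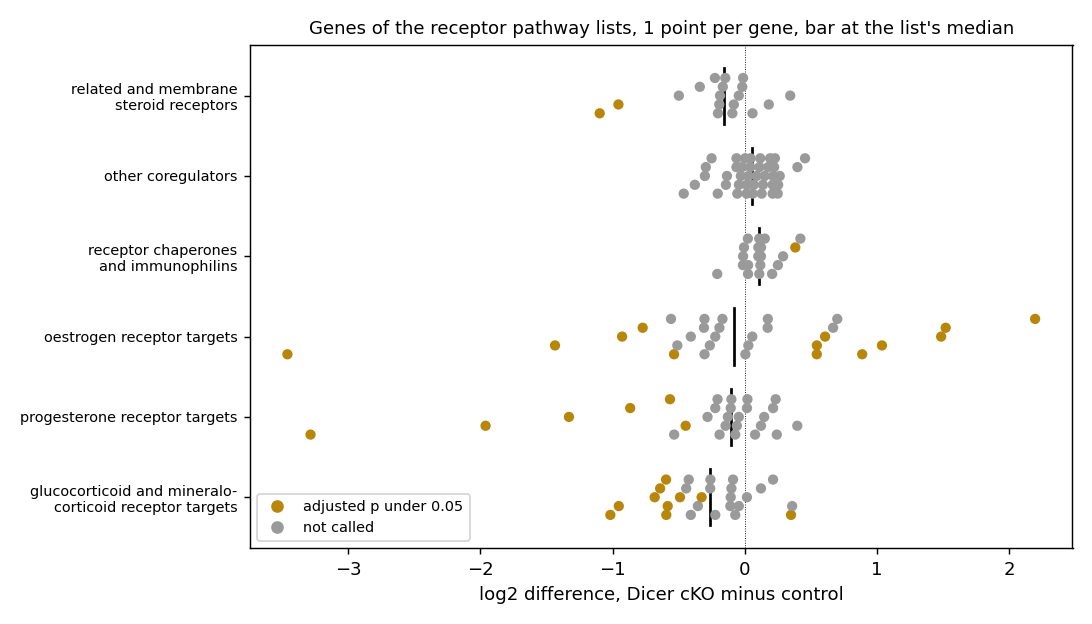
Log2 difference, Dicer cKO minus control, of each tested gene in 6 lists around the steroid receptors; bars mark list medians and gold points passed an adjusted p of 0.05. The other coregulators lie between -0.46 and 0.46, while the oestrogen targets reach from -3.46 to 2.20.

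Many of these targets are made in particular cell types, whose markers also moved. Over all tested genes, 2.68% were called higher and 3.88% lower. Foxa2, a gland factor called lower, was near background even in control pools 7, 9 and 11 (5.15, 5.27 and 5.09 log2 units). The lowest detected signals there were 4.93, 4.96 and 4.98. It was detected in neither Dicer cKO pool, and was at least 1.12-fold lower against the lowest detected signal of each array. Of 14 tested epithelial markers in all, 4 were called higher, among them Wnt7a (0.89 ± 0.23). Another 5 were lower, among them Cldn3 (-1.48 ± 0.17) and Krt18 (-0.86 ± 0.09). These calls fell to 0 higher and 2 lower without Dicer cKO pool 10, and to 4 in all without Dicer cKO pool 12 or the intensity trend and 5 without control pool 9 or the detection filter. Wnt7a lost its call under 10 of 16 alternatives (limma adjusted p up to 0.348), while Cldn3 and Krt18 kept theirs under all 16. The summed signal of the epithelial list was 14314 to 14393 in the Dicer cKO pools, against 16271 to 20874 in the control pools. Of the 14 stromal markers, the neutral endopeptidase gene Mme fell by 1.14 ± 0.18, Vim by 0.82 ± 0.12, Thy1 by 0.79 ± 0.11 and Twist2 by 0.70 ± 0.08. Mme and Vim were no longer called with Dicer cKO pool 10 left out (-0.92 and -0.68; limma adjusted p = 0.0796 and 0.068). Among 10 smooth muscle, 9 endothelial and 6 mesothelial markers tested, limma called 0, and 0 under robust variance estimation as well. At an unadjusted p under 0.05 there were 0, 1 and 0, where 19.6% of all tested probes reached it. Of 7 adipocyte markers 3 were lower (Adipoq, Cfd and Cidec). The count was 2 under most alternatives, among them an offset of 50 and no detection filter. The sum of the 7 was 1077 to 2138 in the Dicer cKO pools against 2618 to 4464 in the control pools. Of 8 leukocyte markers 2 were higher (Cd68 and Lyz2) and 1 lower (Cd14). The sum of the 8 was 1952 to 2427 in the Dicer cKO pools against 2225 to 2561 in the control pools. None of the adipocyte markers was called by limma without Dicer cKO pool 10, with robust variance estimation or without the intensity trend, and 1 was called without control pool 7. Of 12 ovary and oviduct markers 6 were not tested, among them Amh and Cyp19a1, and 1 of the other 6 was lower, Ovgp1, a call that ended when Dicer cKO pool 10 was left out or the variance was estimated robustly. The part of these cell types in the target lists was not tested.

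The genes whose signal was most like that of Pgr over the 5 arrays were sought by Pearson's r, as a description. They were Pla2g5 (r = 0.997), a secreted phospholipase gene, Pdpn (0.997), which encodes podoplanin, C230095J06RIK (0.996), Lrrfip2 (0.996) and Lrrc8e (0.995). With 5 arrays in 2 groups, r is a loose guide. At the wider cut of r above 0.9 there were 654 of 15733 genes. The measure takes no account of size: Pla2g5 differed by -0.74 ± 0.15 and Pdpn by -0.53 ± 0.11 log2 units, while Lrrfip2 differed by -0.06 ± 0.11.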

How the data were processed

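Per the file headers, the authors deposited for each array the mean bead intensity per probe, the SD of the beads, the bead number and a detection score. BeadStudio is named, without a version, per the submitters' processing notes. The deposited intensity was neither background-subtracted nor normalized, as judged from its values. The deposited detection score is high where the signal is, and the detection p was taken as its complement to 1. The labels name a human array, but the gene names of the files are those of mouse.

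With limma 3.58.1 in R 4.3.3, normexp correction from the detection p (offset 16), quantile normalization and log2 transformation were done. Probes detected (p under 0.05) on at least 2 of 5 arrays were kept. Fits used lmFit and eBayes with an intensity trend, without covariates, over 22845 probes, and were tested on simulated data. A gene of a list is its brightest kept probe. The array names of 11917 probes were updated through RefSeq synonyms. No 2 arrays agreed within bead error. The 5 pools allow 10 splits, and a permutation share no lower than 0.1, so no permutation test was made. No slide or scan information was used, so no batch was tested. The authors' normalized table shares no probe identifier with the array files and served for a count of probes; every column has a median intensity of 71.1, its scale is linear, and its background treatment is unknown. The number of arrays limits the precision. Members and lists were chosen with earlier results of these data known. Named list genes are up to 4 called genes with the largest difference, or the 2 with the largest moderated t where none was called; others are said to be chosen later. A related receptor gene is not reported here.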

Additional observations from a re-analysis of the deposited data

How the results depend on the processing

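Pgr kept its direction under all 16 alternatives and its call under 15. Called probes numbered 356 to 1235 with 1 pool left out, 252 to 723 of them lower and 104 to 512 higher, against 1340, 804 and 536. Without the intensity trend 349 probes were higher. Among members, 0 to 1 probe was called with 1 pool left out, and among pathway genes 13 to 31 (32 with all pools). The members that were not called stayed so wherever they were tested (stricter or other probe filters left out Nr3c1 and Ncoa2 probe 1050470 under some alternatives), and those near 0 changed sign: Ncoa1 to 0.050 without control pool 7 and 0.019 with Dicer cKO pool 10 dropped (range -0.057 to 0.050 with 1 pool left out), Ncoa2 probe 5550619 to 0.14 without Dicer cKO pool 10 (range -0.31 to 0.14), and Ncoa3 to -0.046 without control pool 11 and -0.26 with Dicer cKO pool 12 dropped (range -0.26 to 0.38). The cause was not tested. With a pool left out, the lone or paired pools that remain are assumed to vary like the others. The authors' normalized table, without a detection filter, gave 1295 called probes and, with no shared probe identifier, no value for single genes or lists. No paired analysis was possible because the groups share no pool number. Probes near background bound what can be seen for Esr2, Nr3c2, Nrip1 and Nr3c1.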

Other observations

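A probe listed under 2010305B15RIK, an older name of Ncoa3, lies outside the 22 and was looked at after their values were seen. It stood at 4.85 and 5.52 log2 units in Dicer cKO pools 10 and 12, against 4.84, 5.36 and 5.23 in control pools 7, 9 and 11, a difference of 0.04 ± 0.22 (limma adjusted p = 0.946). As with the other Ncoa3 probe, Dicer cKO pool 12 was the highest of the 5. Greb1, an oestrogen-induced cofactor of the oestrogen receptor, was also singled out after its values were seen. It stood at 6.88 and 7.02 log2 units in the Dicer cKO pools, above 5.86, 6.71 and 6.28 in the control pools, with a difference of 0.67 ± 0.21 that was not called (limma adjusted p = 0.103). It was called without control pool 9 (0.88; limma adjusted p = 0.0253). Pgrmc1, a membrane-associated progesterone-binding protein gene, was lower in both Dicer cKO pools (8.42 and 8.73, against 8.93, 8.93 and 8.88) and not called (-0.34 ± 0.11; limma adjusted p = 0.113). With Dicer cKO pool 12 left out it was called (-0.49; limma adjusted p = 0.0402).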
